A study of Homo sapiens with 4 samples.

Results

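The BRCA and DNA damage checkpoint genes are 9 genes chosen by name, BRCA1, BARD1, PALB2, BRCA2, ATM, ATR, CHEK1, CHEK2 and TP53BP1, and every transcript listed for them was kept. They had 86 listed transcripts, out of 75165 transcripts of 20298 genes. The RNA came from MDA-MB-231 cells, an established triple negative breast cancer cell line, which all carried a lentiviral vector for 3x Flag-tagged YTHDC1, the nuclear reader of N6-methyladenosine, used at a multiplicity of infection of 4 and followed by 4 days of selection in 2 μg/ml puromycin. The transgene was driven by a CMV promoter. RIP-seq sequences the RNA that an antibody pulls down along with its protein, beside RNA of the lysate before the pulldown, and here gave 2 anti-Flag IP libraries and 2 input libraries, both from nuclear lysate of UV-crosslinked cells. All groups thus overexpressed YTHDC1 in 1 cell line, and cells without the vector and an IP with control IgG are not analysed here.

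The value used throughout is the authors' mean normalized count of a transcript, which averages the 4 libraries together. It shows how the reads from the nuclear RNA of a gene were divided among its transcripts. It pools the libraries, so that no replicate error can be given, library depths are unknown, and nothing in it tells IP from input. A difference in share between transcripts could therefore come from the IP, from the input or from both, and these cannot be told apart. No test was run, and all values below are descriptions.

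The kinase ATM responds when both strands of DNA break, while the kinase ATR responds to single-stranded DNA, as at stalled replication forks. They activate the effector kinases CHEK2 and CHEK1, respectively, which hold the cell cycle. TP53BP1 gathers on chromatin beside breaks and favours end joining. BRCA1 acts with its partner BARD1, with which it forms a ubiquitin ligase, and favours repair by homologous recombination, in which PALB2 links BRCA1 to BRCA2. Transcripts annotated as protein-coding can encode protein, retained-intron transcripts keep an intron, nonsense-mediated decay transcripts have an early stop codon that marks them for breakdown, and processed transcripts have no long open reading frame. The libraries were made from nuclear RNA depleted of ribosomal RNA. Whether reads assigned to retained-intron transcripts came from RNA that was not yet spliced was not tested.

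The cell line was checked by a few marker genes. VIM, the intermediate filament of mesenchymal cells, had a summed mean normalized count of 80785. CD44, a surface marker of mesenchymal-like breast cancer cells, had 14306. CDH1, the epithelial cadherin, had 1 listed transcript at 10.0, annotated as nonsense-mediated decay, so that no protein-coding CDH1 transcript was listed. Of the receptor genes that define the triple negative class, ESR1 and PGR were not listed, whereas ERBB2 was, with 15 transcripts and a summed mean normalized count of 4303. YTHDC1 itself had a summed mean normalized count of 55488. The mean normalized counts were not divided by transcript length, so that a long transcript collects more reads at the same level. No transcript lengths were used here, and sums of different genes are given as read support and are not ranked. The same limit holds between transcripts of 1 gene. All shares are therefore shares of counts, and the most abundant transcript is the one with the highest count.

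The 9 genes took 11874 of the 33361205 mean normalized counts in the table, or 0.0356%. Their transcripts ranged from 3.40 to 1198, with a median of 43.0 against 44.2 over all listed transcripts. Of the 86, 28 reached a mean normalized count of 100 (32.6%, against 34.6% of all transcripts) and 11 lay below 10 (12.8%, against 17.2%). The read support of the single transcripts was thus close to that of the table as a whole. The genes had from 3 to 16 listed transcripts, with a median of 10, whereas the median protein-coding gene had 4.

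**Figure D1:**
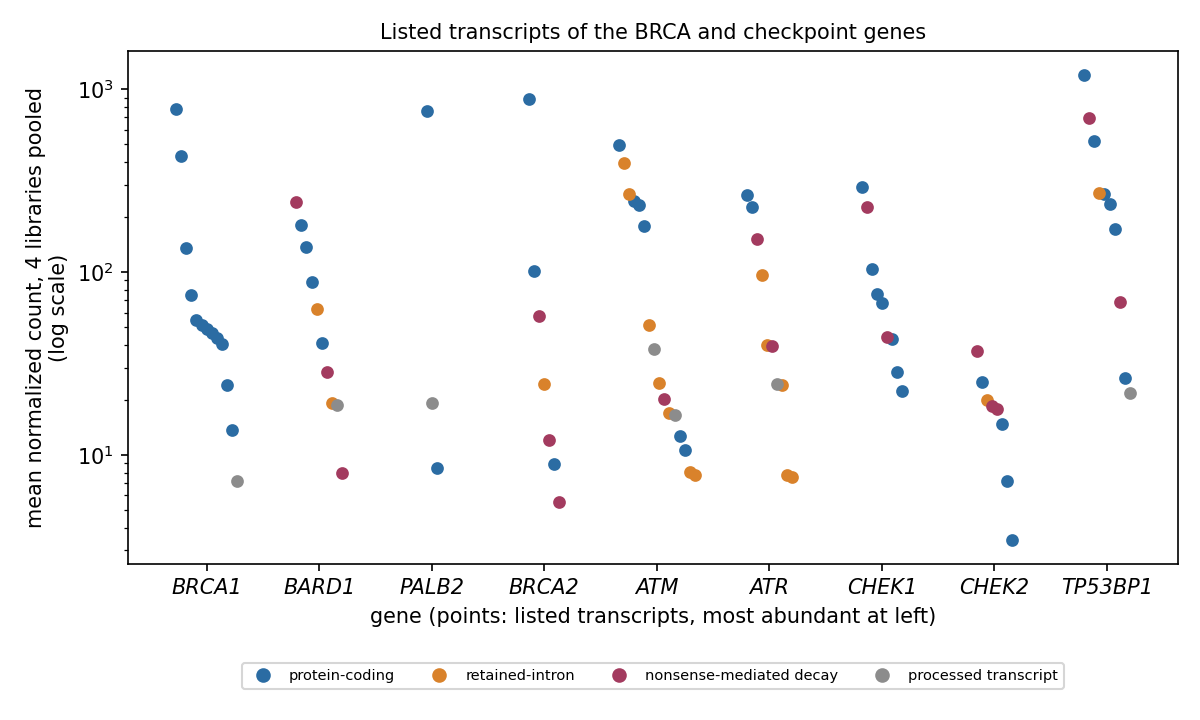
Mean normalized count of each of the 86 listed transcripts (log axis, 4 libraries pooled, no error available), grouped by gene and coloured by annotated type, with the most abundant transcript of each gene at the left. PALB2 and BRCA2 have 1 transcript far above the rest, CHEK2 has none above 36.8, and the highest points of BARD1 and CHEK2 are nonsense-mediated decay transcripts.

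Among the mediators of homologous recombination, PALB2 and BRCA2 had most of their counts in 1 transcript each, BRCA1 spread its counts over many protein-coding transcripts, and BARD1 divided them among types. PALB2 (ENSG00000083093.10, GRCh38 chromosome 16, 23603165 to 23641310 in RefSeq) had 3 listed transcripts. The protein-coding PALB2-201 had a mean normalized count of 760.4 and held 96.5% of the gene's summed 788, which was 39.8 times the next transcript. That next one was PALB2-205, a processed transcript at 19.1, and the last was at 8.50. Nearly all PALB2 reads were thus assigned to 1 coding transcript.

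BRCA2 (ENSG00000139618.15, chromosome 13, 32315077 to 32400268) was nearly as concentrated. Of its 7 transcripts, the protein-coding BRCA2-201 had 889 mean normalized counts, or 80.9% of a summed 1098, and lay 8.76-fold above the second. Its most abundant nonsense-mediated decay transcript was BRCA2-208 at 57.2 (5.21%), and its retained-intron transcript BRCA2-205 was at 24.5 (2.23%). In all, 91.0% of the BRCA2 counts were in protein-coding transcripts, although 3 of its 7 transcripts are annotated as nonsense-mediated decay.

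BRCA1 (ENSG00000012048.23, chromosome 17, 43044295 to 43170327) was almost purely protein-coding and was spread over more isoforms. It had 13 listed transcripts, 12 of them protein-coding, which together held 99.6% of its summed 1743. BRCA1-203 had 774 mean normalized counts (44.4%) and BRCA1-201 had 429 (24.6%), so that both together held 69.0%. The other 10 protein-coding transcripts ranged from 13.6 to 136, and the processed transcript BRCA1-229 was at 7.20. No retained-intron and no nonsense-mediated decay transcript of BRCA1 was listed.

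BARD1 (ENSG00000138376.11, chromosome 2, 214725646 to 214809683), whose protein binds BRCA1, was divided quite differently. Its most abundant transcript, BARD1-204, is annotated as nonsense-mediated decay and had a mean normalized count of 242, or 29.4% of a summed 826. The protein-coding BARD1-213 followed at 181 (21.9%), BARD1-214 at 137 (16.6%) and BARD1-212 at 87.7 (10.6%). The retained-intron BARD1-208 was at 62.7 and the processed transcript BARD1-207 at 18.6. Over its 10 transcripts, BARD1 had 54.1% of its counts in protein-coding, 33.8% in nonsense-mediated decay and 9.92% in retained-intron transcripts. Hence the partners BRCA1 and BARD1 lay at 99.6% and 54.1% protein-coding counts, respectively.

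The apical kinases ATM and ATR were both divided between coding and other transcripts. ATM (ENSG00000149311.18, chromosome 11, 108223067 to 108369102) had 16 listed transcripts, the most of the 9 genes, and a summed mean normalized count of 2016. The protein-coding ATM-201 led with 494 (24.5%). The retained-intron transcripts ATM-204 at 393 (19.5%) and ATM-221 at 268 (13.3%) came next, above the protein-coding ATM-203 at 245 (12.2%) and ATM-215 at 233 (11.5%). Retained-intron transcripts, 7 of the 16, held 38.1% of the ATM counts, and protein-coding transcripts held 58.2%. The single nonsense-mediated decay transcript, ATM-226, was at 20.2, and the highest processed transcript, ATM-223, was at 37.7. ATM was thus the member with the highest share in retained-intron transcripts.

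ATR (ENSG00000175054.16, chromosome 3, 142449235 to 142578733) had a similar coding share from a different mixture. Its 2 protein-coding transcripts, ATR-201 at 265 (30.0%) and ATR-219 at 226 (25.7%), together held 55.7% of a summed 882. The nonsense-mediated decay transcript ATR-202 was at 151 (17.1%), the retained-intron ATR-222 at 96.5 (10.9%) and the processed transcript ATR-206 at 24.4 (2.76%). Over the 10 ATR transcripts, nonsense-mediated decay held 21.6% and retained introns 19.9%, whereas in ATM nonsense-mediated decay held 1.00%.

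CHEK1 (ENSG00000149554.13, chromosome 11, 125625136 to 125681124), the effector kinase of ATR, had no listed retained-intron transcript. Of its 9 transcripts, the protein-coding CHEK1-203 led with 293 (32.3%), followed by the nonsense-mediated decay transcript CHEK1-205 at 227 (25.1%) and the protein-coding CHEK1-215 at 104 (11.5%). The counts of CHEK1, 905 in sum, were divided into 70.0% protein-coding and 30.0% nonsense-mediated decay. All 9 CHEK1 transcripts were above 20, the lowest being at 22.3.

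CHEK2 (ENSG00000183765.22, chromosome 22, 28687742 to 28741834), the effector kinase of ATM, had 8 listed transcripts, which ranged from 3.40 to 36.8 and summed to 144. The nonsense-mediated decay transcript CHEK2-213 led with 36.8 (25.6%), the protein-coding CHEK2-204 had 25.1 (17.5%), and the retained-intron CHEK2-222 had 20.1 (14.0%). The nonsense-mediated decay transcripts CHEK2-212 at 18.5 and CHEK2-209 at 17.9 were followed by the protein-coding CHEK2-226 at 14.8. Nonsense-mediated decay transcripts held 50.9% of the CHEK2 counts and protein-coding transcripts 35.1%, the lowest coding share of the 9 genes. With values this small, and no replicate spread to set beside them, the order of the CHEK2 transcripts is uncertain. RefSeq also lists 6 pseudogenes named for CHEK2 and 1 named for BRCA1, and the exchange of reads with such copies was not tested.

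TP53BP1 (ENSG00000067369.13, chromosome 15, 43403061 to 43510640) had 10 listed transcripts and was led by the protein-coding TP53BP1-210 with 1198 mean normalized counts, or 34.5% of a summed 3472. The nonsense-mediated decay transcript TP53BP1-204 was second at 692 (19.9%), above the protein-coding TP53BP1-201 at 520.5 (15.0%). The retained-intron TP53BP1-216 was at 271 (7.80%) and the processed transcript TP53BP1-215 at 21.7. Of the TP53BP1 counts, 69.7% were in protein-coding and 21.9% in nonsense-mediated decay transcripts. In RefSeq the gene overlaps TUBGCP4, listed with a sum of 799, by 6711 bases, and BRCA1 overlaps the noncoding NBR2, listed with 116. Whether the counting used strand is not given in the sources used here, so reads from these overlaps cannot be assigned with certainty.

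**Figure D2:**
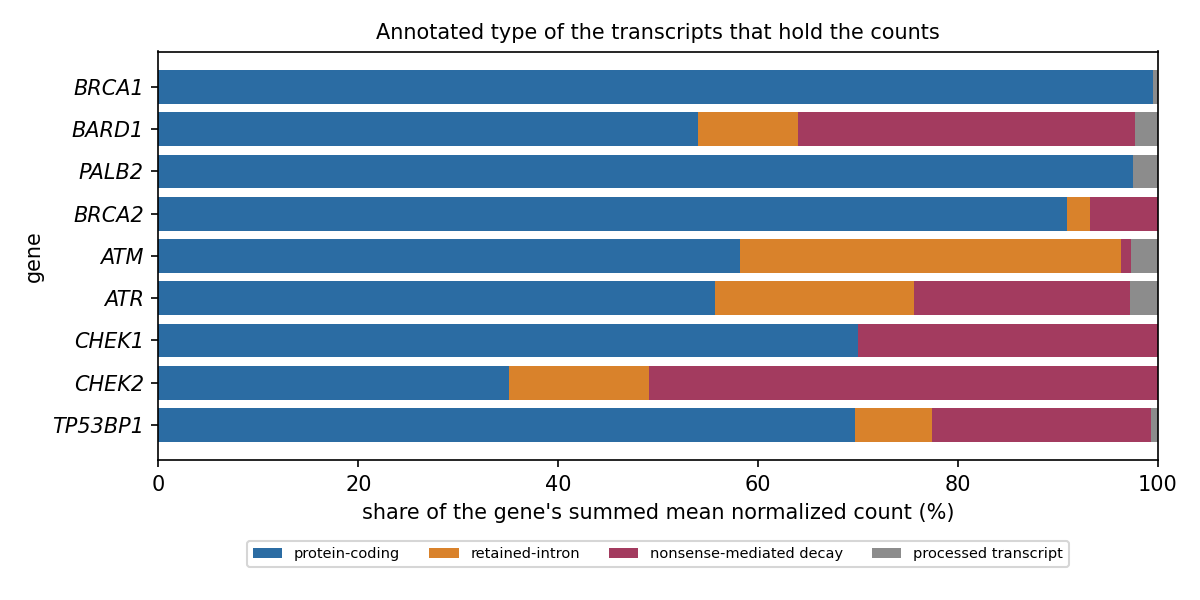
Share of each gene's summed mean normalized count (%) by annotated transcript type, 4 libraries pooled. BRCA1, PALB2 and BRCA2 are over 90% protein-coding, ATM has the widest retained-intron segment (38.1%) and CHEK2 the widest nonsense-mediated decay segment (50.9%).

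Over all 9 genes together, 46 of the 86 transcripts were protein-coding and held 73.4% of the counts. In comparison, the transcripts of all protein-coding genes had 87.6% of their counts in protein-coding transcripts. The 16 nonsense-mediated decay transcripts of the 9 genes held 14.1% against 4.22% over all protein-coding genes, the 17 retained-intron transcripts 11.3% against 4.16%, and the 7 processed transcripts 1.22% against 4.02%. These sums rest most on the genes with most reads. Taken by gene, the median share in protein-coding transcripts was 69.7% over the 9 genes and 90.7% over 11473 other protein-coding genes with at least 2 listed transcripts. BRCA1, PALB2 and BRCA2 lay above that second median, BRCA2 only just, and the other 6 genes below it.

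Genes with more listed transcripts have more room for other types, so the 8 genes with 7 to 16 transcripts were set beside 3150 other protein-coding genes with as many. The median share in protein-coding transcripts was 63.9% over the 8 genes and 84.4% over the 3150. Among genes of any kind, protein-coding or not, with a number of transcripts within 20% of their own, BRCA1 exceeded 98.3% in this share. BRCA2 exceeded 63.9% and PALB2 59.8%. CHEK1 exceeded 32.6%, TP53BP1 31.7%, ATM 23.2%, ATR 19.2%, BARD1 17.8% and CHEK2 9.20%. Genes that are not protein-coding raise such ranks. Without matching by number, each of the 9 genes ranked lower among protein-coding genes than among all genes. CHEK2 exceeded 7.31% against 15.8%, and BARD1 14.7% against 22.5%. A share of at least 20% in nonsense-mediated decay transcripts, a mark chosen after the values were seen, was reached by BARD1, ATR, CHEK1, CHEK2 and TP53BP1. These are 5 of the 8 genes, whereas 15.2% of the 3150 other protein-coding genes reached it. ATR at 21.6% and TP53BP1 at 21.9% lay only just above the mark. A share of at least 20% in retained-intron transcripts was reached by ATM alone, 1 of 8 genes, against 12.3% of the others. The most abundant transcript was not protein-coding in BARD1 and CHEK2, 2 of 8 genes, against 13.5% of the others. Because the 9 genes were chosen by name and are few, these counts describe them and were not tested.

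The concentration of the counts in the most abundant transcript separated PALB2 and BRCA2 from the rest. The median share in the most abundant transcript was 32.3% over the 9 genes and 59.8% over 12639 other genes with at least 2 listed transcripts. Since this share falls with the number of transcripts, each gene was also set beside genes with a number of transcripts within 20% of its own. PALB2 exceeded 95.5% of 2130 such genes, and BRCA2 exceeded 90.2% of 2799. BRCA1 lay in the middle, above 49.4% of 806 genes, but above 22.9% of all 12639. TP53BP1 exceeded 23.3%, CHEK1 17.5%, ATR 13.1%, BARD1 12.3%, ATM 10.3% and CHEK2 3.80% of the genes like them in number of transcripts. Against all 12639 genes, these 6 genes exceeded 8.89%, 6.74%, 4.65%, 4.25%, 1.47% and 1.99%, respectively, PALB2 96.4% and BRCA2 79.6%. The effective number of transcripts is the number of transcripts with equal counts that would give the same concentration. It ran from 1.07 in PALB2 and 1.50 in BRCA2 over 3.70 in BRCA1 to 6.20 in CHEK2 and 6.54 in ATM. To reach 90% of the gene's counts, 1 transcript was enough in PALB2 and 2 in BRCA2, while BRCA1 needed 8, ATM and CHEK1 7, and the other genes 6.

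**Figure D3:**
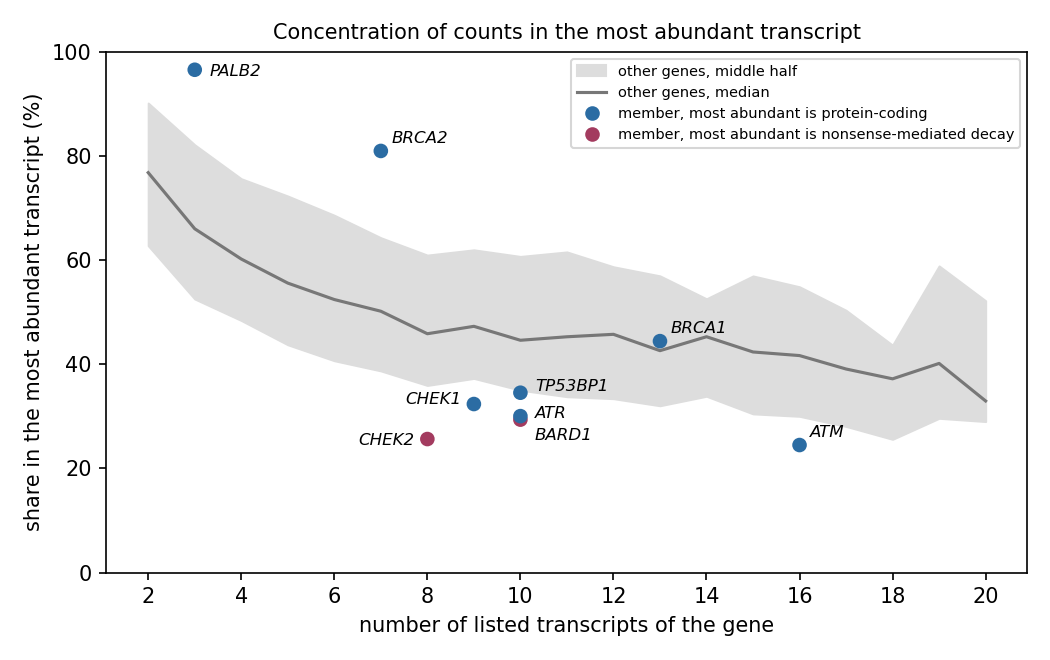
Share of the gene's summed mean normalized count in its most abundant transcript (%) against the number of listed transcripts, with the 9 genes as points and other genes as a median line and a band for the middle 50%. PALB2 and BRCA2 lie above the band, BRCA1 lies near the line at 44.4%, TP53BP1 is at the lower edge, and CHEK1, ATR, BARD1, CHEK2 and ATM lie below the band.

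The other DNA damage response genes were described from a list of 49 genes that act with these proteins. All 49 were listed in the table, with 274 transcripts and a median of 5 a gene. Their median share in protein-coding transcripts was 92.3%, against 69.7% over the 9 genes, which have more listed transcripts. Over the 17 genes of the list with 7 to 16 listed transcripts, the median was 73.0%, against 63.9% over the 8 of the 9 genes with as many, a comparison added after the data were seen. On the list, 10 genes had protein-coding transcripts alone, a count for which no share over all genes was computed. These 10 include XRCC2, SHLD1 and SHLD3, the 3 genes of the list with only 1 listed transcript. Also among the 10 were RPA2, a subunit of the single-stranded DNA binding protein, and NBN, a subunit of the break sensor with MRE11 and RAD50. The shares went down to 27.9%, and among the lowest was RAD9A, a subunit of the clamp that helps to activate ATR, at 28.4%. In 6 of the 49 genes the coding share was below 50%, a count for which no share over all genes was computed. Of the 46 genes of the list with at least 2 listed transcripts, 8 had a most abundant transcript that was not protein-coding. Over 11473 other protein-coding genes with at least 2 listed transcripts, 13.1% did.

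By role, over genes with at least 2 listed transcripts, the break sensing genes came closest to the 9 genes, with a median coding share of 73.0% over 7 genes. In this group the most abundant transcript was annotated as nonsense-mediated decay in RAD50, at 36.5% of the gene's counts, and in RNF168, a ubiquitin ligase at breaks, at 63.2%. The median was 81.9% over the 15 homologous recombination genes, 87.3% over the 10 genes of the ATR branch, 92.4% over the 5 genes of the BRCA1-A complex, and 97.6% over the 5 checkpoint targets. The 4 effectors of TP53BP1 with at least 2 transcripts had a median of 91.4%. The order differed over genes with 7 to 16 listed transcripts, where 8 of the 9 genes had a median of 63.9%. There it was 83.6% over 4 break sensing genes, 55.9% over 3 genes of the ATR branch and 62.9% in 1 effector of TP53BP1. It was 81.9% over 5 homologous recombination genes, 91.7% over 2 of the BRCA1-A complex and 81.8% over 2 checkpoint targets. Which role came closest thus depended on the set of genes. In all, 11 of the 46 genes of the list with at least 2 listed transcripts had at least 20% of their counts in nonsense-mediated decay transcripts. As much in retained-intron transcripts was reached by 1 of the 46. Over 11473 other protein-coding genes with at least 2 listed transcripts, 12.9% and 9.49% did, respectively.

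**Figure D4:**
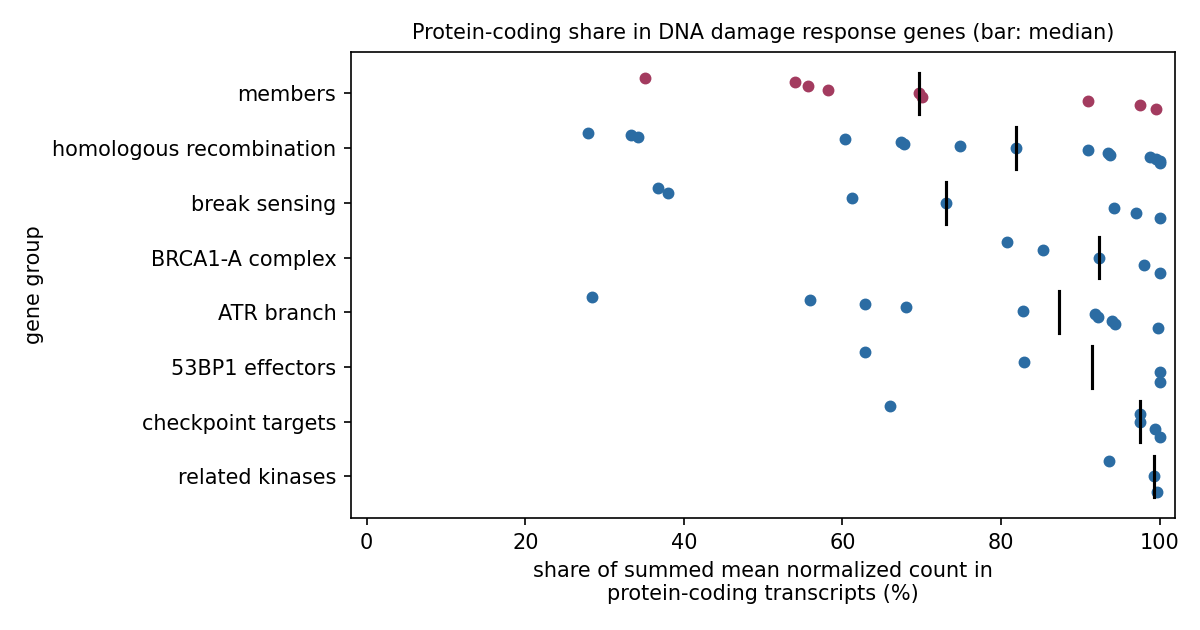
Share of each gene's summed mean normalized count in protein-coding transcripts (%), with 1 point for each gene with at least 2 listed transcripts and a bar at the median of each group. The 9 genes (top row) spread from 35.1% in CHEK2 to 99.6% in BRCA1, and the break sensing genes have the next lowest median at 73.0%.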

How the data were processed

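RIP-seq of 4 libraries, 2 Flag-YTHDC1 IP and 2 input, was grouped by the sample labels. Mapping by the authors used STAR (version 2.7.2b) and a GENCODE transcriptome, RSEM (version 1.2.31) then gave estimated reads per transcript, and the submitters' processing notes name the build GRCh38. Transcripts had to reach 5 reads in no fewer than 50% of the samples, and the authors then applied RUVSeq against batch effects and DESeq2. Reads that match several isoforms are split among them by RSEM, so that an isoform's value may have little unique evidence behind it, and the shares of overlapping transcripts depend on each other. Whether the deposited mean was taken after the batch correction is not given in the sources used here.

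The deposited table holds 1 signal column used here, the authors' mean normalized count over all libraries. Its other value columns are the authors' own comparison of IP with input (log2 fold changes with standard errors, and p-values before and after adjustment), and they were not used. No comparison of IP with input and no test was therefore made, and depth and replicate spread are unknown.

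Transcripts were summed by gene identifier. All 9 genes matched by symbol in the table and in RefSeq (GRCh38.p14), which gave the positions, and their 9 identifiers were found in a table of gene names. The transcripts named are the most abundant one of each gene, those with at least 10% of its counts and the most abundant one of each type. The members and the gene lists were chosen with earlier results of these data known, and 1 gene of the lists is not reported here. The code for the sums and shares was checked on simulated data. Python 3.11.15, numpy 2.4.6, pandas 2.3.3 and matplotlib 3.10.9 were used. No sequence is printed, since no sequence of the transcripts was used here.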

Additional observations from a re-analysis of the deposited data

How the results depend on the processing

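The values were recomputed with minimum mean normalized counts of 10 and 100, with protein-coding transcripts alone, with each transcript counted once, and against other sets of genes, the set of protein-coding genes and the listing of pathway genes by number of transcripts having been added after the data were seen. Of 192 recomputed values, 136 stayed within 1.5-fold of the reported one, a mark used because there is no replicate spread, and 56 did not. Of the 136, 59 came from the minimum of 10, which kept a summed 11794 of 11874 and so left little room for change. The number of listed transcripts went from 86 to 28 at a minimum of 100, which left 8 of the 9 genes since no CHEK2 transcript reached it, and to 46 with protein-coding transcripts alone, as these settings keep fewer transcripts. The median share in the most abundant transcript was 49.5% with protein-coding transcripts alone and 45.1% at a minimum of 100. The share of all 9 genes in protein-coding transcripts was 73.7% at a minimum of 10, 77.7% at a minimum of 100 and 53.5% with each transcript counted once. With each transcript counted once, the coding share was 42.9% in BRCA2, 37.5% in ATM and 20.0% in ATR. Division by protein length was planned for the case that lengths were given and was not run. No paired analysis was possible because the table gives no value for a single library, and for the same reason no replicate could be left out.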

Other observations

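ATM and ATR belong to a family of large kinases with PRKDC, the kinase of end joining, MTOR, the growth regulator, and SMG1, which acts in nonsense-mediated decay. These 3 relatives were divided less among transcript types than ATM and ATR. Protein-coding transcripts held 93.7% of the counts of PRKDC, 99.7% of MTOR and 99.3% of SMG1, against 58.2% in ATM and 55.7% in ATR. The most abundant transcript, protein-coding in each, held 75.2% in PRKDC, 95.1% in MTOR and 55.2% in SMG1, against 24.5% in ATM and 30.0% in ATR. These are single pooled values with no test. The 3 relatives had 6, 4 and 9 listed transcripts, respectively, fewer than ATM and ATR, and summed mean normalized counts of 19414, 7052 and 8292.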
